A study of Mus musculus with 68 samples.

Results

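Genes of the cyclooxygenase and lipoxygenase pathways were followed in papillomas, benign skin tumors, of 37 backcross mice. The set was chosen by gene symbol and held 9 genes: Ptgs1, Ptgs2, Ptges, Hpgd, Alox12b, Aloxe3, Alox12, Alox15 and Alox5. Every probeset annotated with 1 of these symbols was taken, which gave 13 of the 45101 probesets on the array and covered 8 of the 9 genes. Ptgs1, the cyclooxygenase that most tissues make at all times, was not analysed here. The 12 member probesets that lay above the median of their own array in at least 11 of the 68 arrays entered the tests, among 21581 probesets in all. The exception was the second probeset of Alox12 (1422700_at), which averaged 3.61 on the log2 scale in susceptible mice, 3.70 in resistant mice and 3.73 in intermediate mice.

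All mice were FVBBX animals, offspring of SPRET/Ei X FVB/N hybrids crossed back to FVB/N, that were 8 to 12 weeks old when their back skin received 1 dose of the carcinogen DMBA, and all then received the tumor promoter TPA for 20 weeks. They were grouped by papilloma number at 20 weeks into 12 susceptible mice with 9 to 35 papillomas (22 arrays), 6 resistant mice with 0 or 1 papilloma (11 arrays) and 19 intermediate mice with 2 to 7 papillomas (35 arrays). Each mouse was genetically different, no class carried an engineered allele, untreated skin was not analysed here, and the arrayed papillomas of resistant mice with a count of 0 cannot have been among those counted at 20 weeks. Resistant mice 7, 34 and 37 had a count of 1 and 2 arrayed papillomas each, so at most 1 of each pair can have been counted then. The mouse was the replicate: log2 values of its papillomas were averaged, with 2 papillomas in 31 mice and 1 in 6.

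Arachidonic acid freed from membranes by phospholipase A2 is turned into prostaglandins by the cyclooxygenases and into hydroperoxy acids by the lipoxygenases. In mouse skin treated with TPA, cyclooxygenase 2 (Ptgs2) and prostaglandin E synthase (Ptges) make prostaglandin E2, a product long tied to papilloma growth, and 15-hydroxyprostaglandin dehydrogenase (Hpgd) inactivates it. The lipoxygenases Alox12b and Aloxe3 work in sequence on ceramide-bound linoleate to build the water barrier of the epidermis, whereas Alox12, Alox15 and Alox5 make signaling lipids in platelets, epithelia and leukocytes.

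RefSeq promoter sequences (GRCm38.p6) were matched for 7 of the 9 genes, all but Aloxe3 and Alox15. The 250 bases before the annotated start are printed, 5′ to 3′ on the strand of the gene, for Hpgd, whose level followed papilloma number, for Ptgs2, the enzyme on the opposite side of prostaglandin balance, and for Alox12b, whose level moved with that of Aloxe3. Capitals mark the GC box, GGGCGG on either strand.
Hpgd, chr8:56294302-56294551, + strand: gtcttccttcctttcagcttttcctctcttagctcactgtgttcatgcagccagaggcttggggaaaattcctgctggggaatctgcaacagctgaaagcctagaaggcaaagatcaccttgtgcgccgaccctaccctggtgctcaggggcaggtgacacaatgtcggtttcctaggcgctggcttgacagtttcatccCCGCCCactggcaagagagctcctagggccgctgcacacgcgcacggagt
Ptgs2, chr1:150099781-150100030, + strand: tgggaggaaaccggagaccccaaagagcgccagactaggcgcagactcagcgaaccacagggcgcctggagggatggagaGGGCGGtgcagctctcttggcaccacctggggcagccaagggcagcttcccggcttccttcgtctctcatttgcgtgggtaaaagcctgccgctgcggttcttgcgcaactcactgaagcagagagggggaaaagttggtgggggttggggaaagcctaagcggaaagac
Alox12b, chr11:69156822-69157071, + strand: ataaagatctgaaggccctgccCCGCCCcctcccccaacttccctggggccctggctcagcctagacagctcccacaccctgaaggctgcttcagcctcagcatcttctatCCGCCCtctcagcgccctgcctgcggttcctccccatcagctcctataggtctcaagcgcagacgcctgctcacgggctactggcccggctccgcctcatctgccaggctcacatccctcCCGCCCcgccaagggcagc
The GC box was found 1 time in the Hpgd window, 50 bases before the start, 1 time in the Ptgs2 window, 170 bases before the start, and 3 times in the Alox12b window, 228, 139 and 19 bases before the start. It was present in 32.7% of 32817 promoters of the same length. The letters TATAAA (12.4% of promoters), TGANTCA (6.75%, the AP-1 motif), TGACG (17.7%), CACGTG (6.02%) and CCAAT (33.8%), searched on both strands, were in none of the 7 windows. These letter matches describe the sequence only.

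The array medians lay between 5.18 and 5.28 on the log2 scale. The arrays fell into 7 start cohorts of 2 to 9 mice, and no resistant mouse was in cohort A or F. In 8 arrays of 6 mice, sex-linked transcripts went against the sex in the labels. Basal keratinocyte markers, whose summed level was between 14.63 and 15.65 log2 units in every mouse, were high throughout.

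Hpgd, which ends the action of prostaglandin E2, was highest in papillomas from mice that carried many papillomas. The main probeset (1419905_s_at, a design whose probes can match more than 1 transcript) had a lowest, median and highest mouse of 7.62, 8.55 and 9.46 in susceptible mice, of 6.12, 7.43 and 8.16 in resistant mice, and of 7.37, 8.13 and 8.61 in intermediate mice. The ranges of susceptible and resistant mice overlapped: 2 resistant mice (7 and 10) lay above the lowest susceptible mice (6 and 29), and the other 4 resistant mice lay below all susceptible mice. The level rose with papilloma number by 0.36 ± 0.06 log2 units (limma slope ± SE, 37 mice) for each unit of log2(papillomas + 1), with a Benjamini-Hochberg adjusted p of 0.0075. It was the 1 member probeset of 12 called, and the 1 probeset called among all 21581 (0.00463% of those tested). 5 of the 12 passed an unadjusted p of 0.05, as did 2352 of the 21581. Mouse 36, with 35 papillomas of which 1 was arrayed, had the highest Hpgd level and mouse 32, with 0, the lowest. Between 2 papillomas of a mouse the SD of Hpgd was 0.74, against 0.63 over the 37 mouse means. Because the samples were bulk tissue, fewer cells of a type and less RNA per cell cannot be told apart here or below.

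Pearson's r between Hpgd and log2(papillomas + 1) was 0.71 (permutation p = 1e-05, the lowest value reachable with 100000 permutations) and Spearman's rho was 0.66 (permutation p = 2e-05). Without the 2 mice farthest from the median papilloma number r was 0.70. In the start cohorts with at least 6 mice it was 0.16 in A, 0.77 in B and 0.54 in F, and within the susceptible mice it was 0.61, against 0.25 within the intermediate mice. The second probeset (1419906_at) had a slope of 0.13 ± 0.03 that did not pass over all probesets (adjusted p = 0.145), with r of 0.55 over all mice and of −0.41, 0.70 and 0.15 in cohorts A, B and F. The 2 Hpgd probesets correlated at r = 0.78 over the 37 mice. The call of the main probeset was lost when mouse 32 (0.30, adjusted p = 0.103) or mouse 36 (0.33, adjusted p = 0.0833) was left out, and when only the first (0.41, adjusted p = 0.157) or only the second papilloma (0.25, adjusted p = 0.858) of each mouse was used. It was also lost with the 68 arrays fitted with the mouse as a random block (0.35, adjusted p = 0.183), with papillomas at 24 weeks (0.32, adjusted p = 0.539) and with the rank of papilloma number (0.039 per rank, adjusted p = 0.0654). The slope stayed between 0.30 and 0.40 as each of the 37 mice was left out in turn, and the call held in 35 of these fits.

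**Figure D1:**
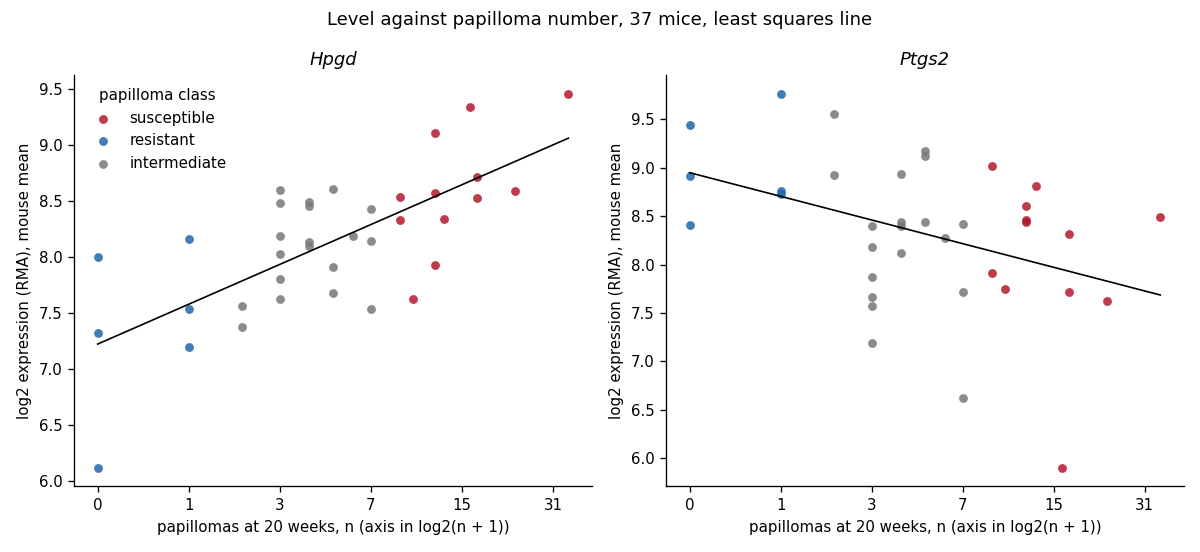
Mouse mean log2 level of Hpgd (left) and Ptgs2 (right) against papilloma number at 20 weeks, on an axis in log2(n + 1), with a least squares line over 37 mice and points colored by class. Hpgd runs upward, with r = 0.71, from mouse 32 at 6.12 to mouse 36 at 9.46, and Ptgs2 runs downward with r = −0.40.

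Between the classes, Hpgd averaged 8.59 ± 0.53 in susceptible mice and 7.39 ± 0.73 in resistant mice (SD, n = 12 and 6), with 8.07 ± 0.39 in intermediate mice (n = 19). The susceptible minus resistant difference was 1.20 ± 0.28 log2 units, or 2.30-fold, with an exact two-sided permutation p of 0.000539 over 18564 splits for this probeset taken alone and a limma adjusted p of 0.104 over all probesets. None of the 12 member probesets was called by limma in this contrast, against 11 of all 21581 (0.051%), and 3 had an unadjusted p under 0.05, as did 2055 of the 21581. The second Hpgd probeset averaged 5.44 ± 0.34 in susceptible mice and 5.03 ± 0.27 in resistant mice, a difference of 0.41 ± 0.16 (adjusted p = 0.363). Hpgd was called in this contrast when all 37 mice shared 1 fit (1.20, adjusted p = 0.0282) and without susceptible mouse 29 (1.29, adjusted p = 0.0426).

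Markers of differentiated keratinocytes went with Hpgd, which was positively related to 3 of 4 granular markers (Hrnr, r = 0.63, Lor, 0.59, and Flg, 0.54) and to 1 of 4 spinous markers (Krt10, 0.53) after adjustment, against 0.885% of all probesets. None of these relations was called when ranks were used. The summed level of the 4 spinous markers tested (Krt1, Krt10, Dsg1a, Dsc1) was 13.83 to 15.61 log2 units in susceptible mice, 11.34 to 14.57 in resistant mice and 14.42 to 15.65 in intermediate mice, and its r with Hpgd was 0.53. The 4 granular markers tested (Lor, Flg, Hrnr and Casp14 of a list of 5) summed to 13.50 to 15.07 in susceptible mice, 10.40 to 14.03 in resistant mice and 12.18 to 15.13 in intermediate mice, with r of 0.61. All 4 spinous and all 4 granular markers were higher in susceptible than in resistant mice at an unadjusted p of 0.05, and none after adjustment. That unadjusted p was reached by 2055 of all 21581 probesets in either direction. The ratio of 3′ to 5′ Actb probesets, a sign of RNA integrity, had a median of 0.82 log2 units in susceptible mice, 0.62 in resistant mice and 0.64 in intermediate mice, with r of 0.49 to log2(papillomas + 1) and 0.42 to Hpgd. With that ratio in the fit the Hpgd slope was 0.33 (adjusted p = 0.312). The part of cell makeup in the Hpgd result was not tested.

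Ptgs2, the inducible cyclooxygenase, ran the other way without passing the adjusted threshold. The main probeset (1417262_at) had a lowest, median and highest mouse of 5.90, 8.38 and 9.02 in susceptible mice, of 8.41, 8.83 and 9.77 in resistant mice, and of 6.62, 8.40 and 9.55 in intermediate mice. Every resistant mouse was at or above 8.41, a level that overlapped the upper part of the susceptible range. The susceptible minus resistant difference was −0.91 ± 0.34 log2 units (exact permutation p = 0.0165 for the probeset alone, limma adjusted p = 0.352), and −0.66 ± 0.35 on the second probeset (1417263_at, exact permutation p = 0.0925, adjusted p = 0.560). The 2 probesets correlated at r = 0.89. The slope on papilloma number was −0.24 ± 0.09 (adjusted p = 0.308), with Pearson's r of −0.40 (permutation p = 0.0145) and Spearman's rho of −0.32 (permutation p = 0.0549). Within cohorts A, B and F that r was 0.02, −0.29 and −0.30. The summed level of the 4 endothelial markers tested (Pecam1, Cdh5, Kdr, Tek) was 8.31 to 10.03 log2 units in susceptible mice, 8.74 to 10.30 in resistant mice and 8.30 to 9.35 in intermediate mice. Its r with Ptgs2 was 0.52. Each endothelial marker alone had r of 0.41 to 0.48 with Ptgs2, and none was called. Nor was any of the 21579 probesets set against Ptgs2 by limma, of which 1519 had an unadjusted p under 0.05. The 5 basal keratinocyte markers had r from −0.03 to 0.45. The part of endothelial or other cells in the Ptgs2 level was not tested.

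Ptges, which converts prostaglandin H2 to E2 downstream of Ptgs2, differed between susceptible and resistant mice by less than its standard error. Its main probeset (1449450_at) had a lowest, median and highest mouse of 8.54, 9.24 and 10.28 in susceptible mice, of 8.15, 9.23 and 10.12 in resistant mice, and of 8.88, 9.52 and 10.40 in intermediate mice, so the classes overlapped over most of their ranges. The susceptible minus resistant difference was 0.19 ± 0.29 (adjusted p = 0.904), and its sign turned when the start cohort was in the fit (−0.37). The other 2 Ptges probesets gave 0.22 ± 0.25 and 0.25 ± 0.27, and the 3 correlated with each other at 0.87 to 0.92.

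**Figure D2:**
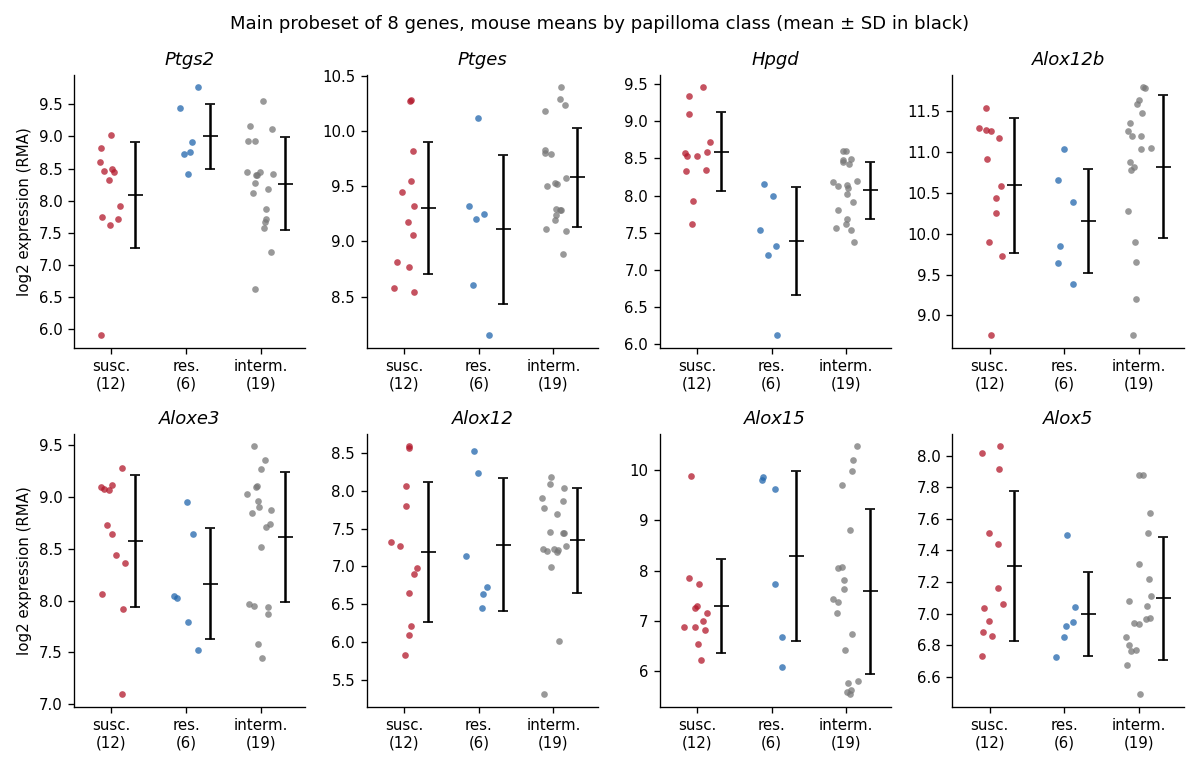
Mouse mean log2 level of the main probeset of 8 genes in 12 susceptible, 6 resistant and 19 intermediate mice, 1 point a mouse, with the class mean ± SD in black. Hpgd is highest in susceptible mice (mean 8.59) and Ptgs2 in resistant mice (mean 9.00), the classes overlap for every gene, and Alox15 spreads between 5.55 and 10.47 in intermediate mice.

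The barrier lipoxygenases were not called between any classes. Alox12b (1418266_at), the 12R-lipoxygenase that starts the barrier reaction, had a lowest, median and highest mouse of 8.76, 10.75 and 11.54 in susceptible mice, of 9.38, 10.12 and 11.04 in resistant mice, and of 8.76, 11.05 and 11.80 in intermediate mice. The resistant mice lay wholly inside the range of both other classes, and the susceptible minus resistant difference was 0.43 ± 0.36 (adjusted p = 0.772). Aloxe3 (1449237_at), which isomerizes the product of Alox12b, had 7.10, 8.69 and 9.28 in susceptible mice, 7.52, 8.03 and 8.96 in resistant mice, and 7.45, 8.85 and 9.49 in intermediate mice. Its resistant range also fell inside the others, with a susceptible minus resistant difference of 0.41 ± 0.29 (adjusted p = 0.691).

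Of the lipoxygenases that make signaling lipids, Alox15 (1420338_at, the mouse 12/15-lipoxygenase) varied most. It had a lowest, median and highest mouse of 6.23, 7.07 and 9.87 in susceptible mice, of 6.08, 8.68 and 9.87 in resistant mice, and of 5.55, 7.44 and 10.47 in intermediate mice. In the resistant class 3 mice were above 9 and 3 below 8, whereas in the susceptible class 1 mouse (30) was above 9 and the others were below 8. The mean was 7.29 ± 0.93 in susceptible mice and 8.30 ± 1.69 in resistant mice, a difference of −1.003 ± 0.56 with an exact permutation p of 0.129 and an adjusted p of 0.605. Alox12 (1422699_at), the platelet-type enzyme, had a lowest, median and highest mouse of 5.82, 7.12 and 8.60 in susceptible mice, of 6.45, 6.94 and 8.53 in resistant mice, and of 5.31, 7.44 and 8.19 in intermediate mice. These ranges largely coincided, and the susceptible minus resistant difference of −0.10 ± 0.42 changed sign under 5 of 14 alternative settings. Alox5 (1441962_at), which starts leukotriene synthesis, had 6.73, 7.11 and 8.06 as the lowest, median and highest susceptible mouse, 6.72, 6.93 and 7.50 in resistant mice, and 6.49, 6.97 and 7.88 in intermediate mice. The 4 highest susceptible mice for Alox5 lay above every resistant mouse, and the difference was 0.31 ± 0.20 (adjusted p = 0.670). Its slope on papilloma number, 0.12 ± 0.05, did not pass (adjusted p = 0.375).

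**Figure D3:**
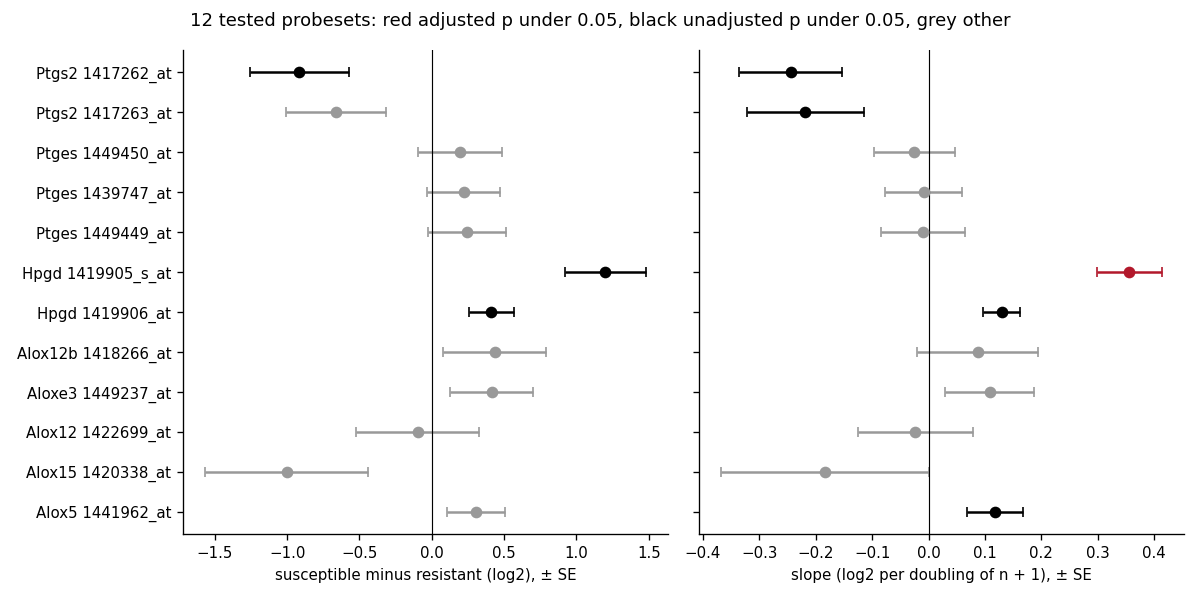
Susceptible minus resistant difference in log2 units (left) and slope per unit of log2(papillomas at 20 weeks + 1) (right), each ± SE, for the 12 tested member probesets. The slope of Hpgd 1419905_s_at, 0.36, is the 1 value with an adjusted p under 0.05, and both Ptgs2 probesets lie below 0 in both panels.

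The intermediate class was also set against each end. For susceptible minus intermediate mice none of the 12 member probesets was called by limma, against 2 of 21581 (0.00927%), and 1 had an unadjusted p under 0.05 (3465 of all 21581 did), Hpgd at 0.52 ± 0.18 (adjusted p = 0.189). For resistant minus intermediate mice none of the 12 was called, against 168 of 21581 (0.778%), and 2 had an unadjusted p under 0.05, as did 3919 of the 21581, a like share. These were Hpgd at −0.68 ± 0.23 (adjusted p = 0.109) and Ptgs2 at 0.74 ± 0.33 (adjusted p = 0.224). In the same contrast 3 of 4 spinous markers and 1 of 4 granular markers fell after adjustment, and 1 of 4 endothelial markers, Kdr, rose (0.69 ± 0.16, adjusted p = 0.030).

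The barrier pair was then set against the other lipoxygenases as the mean log2 level of Alox12b and Aloxe3 minus that of Alox12, Alox15 and Alox5. This score, which was described and not tested, had a lowest, median and highest mouse of 0.57, 2.49 and 3.44 in susceptible mice, of 0.37, 1.49 and 3.07 in resistant mice, and of 0.36, 2.44 and 3.95 in intermediate mice. Its mean was 2.32 ± 0.91 in susceptible mice and 1.63 ± 1.13 in resistant mice, and the 3 ranges overlapped. As each mouse was left out in turn, the susceptible minus resistant difference in the score lay between 0.44 and 0.98. Among its own parts the score followed Alox15 (r = −0.83) and Alox12b (r = 0.73) over the mice.

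Papillomas of 1 mouse resembled each other about as often for these genes as for all probesets. The intraclass correlation over the 31 mice with 2 papillomas, which is 1 when the papillomas of a mouse are identical and near 0 when they are no more alike than those of different mice, passed an adjusted F test for 8 of 12 member probesets, against 15312 (71%) of all 21581, where its median was 0.44. Ptges was the most mouse-specific of the members, at 0.64 on the main probeset and 0.67 and 0.71 on the others, followed by Alox5 at 0.58, Alox15 at 0.54, Ptgs2 at 0.53 and 0.52, and Alox12 at 0.47. The 4 probesets that did not pass were those of Alox12b (0.22, adjusted p = 0.127), Aloxe3 (0.25, adjusted p = 0.0982) and Hpgd (0.16, adjusted p = 0.214, and 0.27, adjusted p = 0.0802). Sequence differences of SPRET/Ei can interfere with hybridization to a probe. Their part in these correlations, or in levels compared between mice, was not tested.

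The gaps within a mouse ranged widely. The papillomas of susceptible mouse 9 had Hpgd levels of 6.73 and 9.93, a 9.21-fold gap, and 8 of 31 pairs were more than 1 log2 unit apart. For Alox12b the papillomas of resistant mouse 32 had 7.57 and 11.71, a 17.7-fold gap, and the same mouse had 6.60 and 9.46 for Aloxe3, so that 1 papilloma was low for both barrier enzymes. For Alox15 the papillomas of intermediate mouse 25 had 5.82 and 10.28, a 21.95-fold gap, and 16 of 31 pairs were more than 1 log2 unit apart. Pairs more than 1 log2 unit apart numbered 10 for Ptgs2, 10 for Alox12, 8 for Alox12b, 5 for Aloxe3, 2 for Ptges and 1 for Alox5. The median gap was 1.01 log2 units for Alox15, whose intraclass correlation passed the test, against 0.67 for Hpgd, whose correlation did not.

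**Figure D4:**
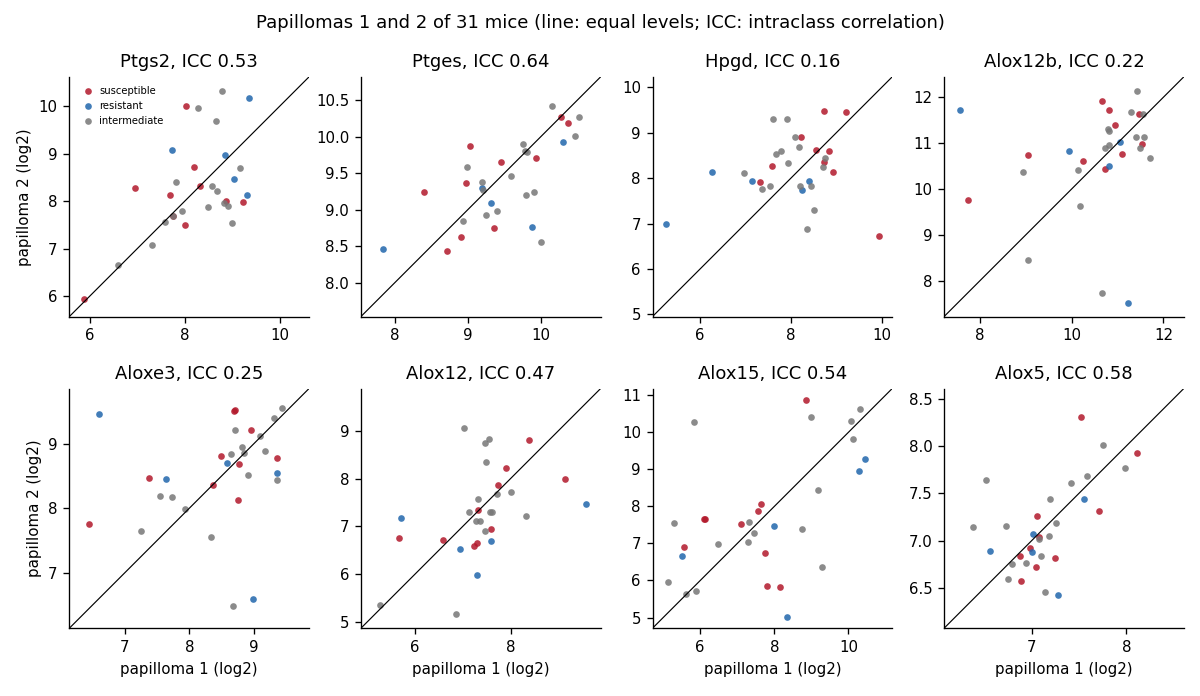
Log2 level in papilloma 1 against papilloma 2 of the same mouse for the main probeset of 8 genes in 31 mice, with a line of equal levels and points colored by class. Ptges (intraclass correlation 0.64) lies close to the line, Hpgd (0.16) scatters away from it, and Alox12b and Aloxe3 each have a few mice with 1 papilloma far below the other.

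Coat color marks a SPRET/Ei allele at Tyr, and 4 of 12 susceptible and 5 of 6 resistant mice were agouti. Between agouti and white mice none of the 12 member probesets was called by limma, against 16 of 21581 (0.0741%), and none had an unadjusted p under 0.05. Between male and female mice none of the 12 was called, against 14 of 21581 (0.0649%), and 2, Alox12b and Aloxe3, had an unadjusted p under 0.05, as did 3439 of the 21581, a like share. Alox12b had a lowest, median and highest mouse of 9.65, 11.11 and 11.80 in males and of 8.76, 10.28 and 11.78 in females. The 5 lowest mice were females while the upper ends of both sexes coincided, and the male minus female difference was 0.77 ± 0.24 (adjusted p = 0.190). For Aloxe3 the difference was 0.43 ± 0.19 (adjusted p = 0.278). Sex was taken from the labels, also for the 6 mice whose sex-linked transcripts went against them. The sex and coat fits were not repeated without those mice.

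Alox12b and Aloxe3 rose and fell together across mice. Pearson's r was 0.90 and Spearman's rho 0.87 over 37 mice (permutation p = 1e-05 for each, again the lowest reachable), and r was 0.87 without the 2 mice farthest from the median, and 0.99, 0.53 and 0.98 in cohorts A, B and F. This was the strongest of 28 gene pairs. The 2 genes are neighbours on chromosome 11, Aloxe3 at 69125417 to 69149115 and Alox12b at 69157072 to 69169791. Alox12 (from 70241457) and Alox15 (from 70344147) lie on the same chromosome. Alleles of these genes can be inherited together in this cross, and the part of shared alleles in their relations was not tested. Levels of Alox12b were related to 23.3% of all other probesets and those of Aloxe3 to 25% after adjustment, so a relation to either was common on these arrays. Alox12b and Alox12 correlated at 0.46 (permutation p = 0.0037), a relation called among all probesets set against Alox12b (adjusted p = 0.0176) and not among those set against Alox12 (adjusted p = 0.174). It was 0.28 in cohort A, 0.27 in B and −0.42 in F, and 0.42 over all mice with sex and start cohort removed.

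Aloxe3 and Alox15 ran in opposite directions, with r of −0.40 (permutation p = 0.0143) and rho of −0.43 (permutation p = 0.00742). The relation was called among the probesets set against Aloxe3 (adjusted p = 0.0448) and not among the 4.34% called against Alox15 (adjusted p = 0.126), and it was 0.42 in cohort A, −0.60 in B and −0.79 in F. Alox12 and Alox15 correlated at 0.42 (permutation p = 0.00949) and at 0.72, 0.83 and 0.55 in cohorts A, B and F, yet passed over all probesets on neither side (adjusted p = 0.247 and 0.0988), where 0.181% of probesets were related to Alox12. Ptgs2 and Hpgd correlated at −0.36 (permutation p = 0.028, adjusted p = 0.640 and 0.277), with 0.41 in cohort A, 0.03 in B and −0.57 in F. None of the 21579 probesets tested was related to Ptgs2 by limma after adjustment (0%), by level or by rank, and 1519 of them were at an unadjusted p of 0.05 by level. The adjusted share was 0.885% for Hpgd, 9.95% for Ptges and 8.7% for Alox5.

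**Figure D5:**
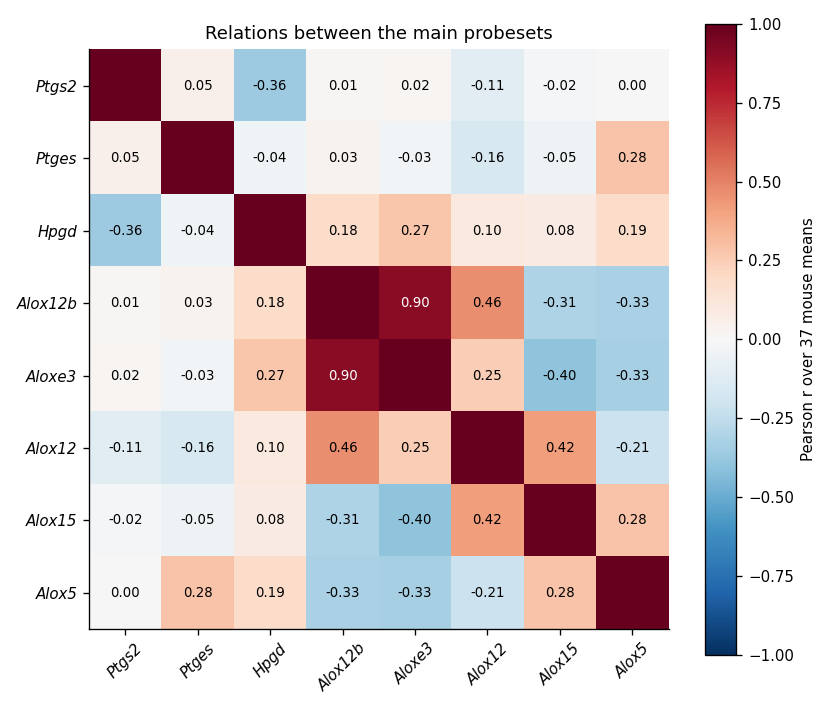
Pearson's r over 37 mouse means between the main probesets of the 8 genes, with color from −1 to 1. The pair Alox12b and Aloxe3 stands at 0.90, Alox15 is negative to both (−0.31 and −0.40), and Ptgs2 has its largest value with Hpgd (−0.36).

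The genes most like each member by r over the 37 mice differed from member to member. Alox12b had Krt78 (0.92), Aloxe3, Tgm3 (0.89), Bicdl2 and Pla2g4d (0.88) as its nearest 5, and Aloxe3 had Pla2g4d (0.94), Krt78 (0.92), Nipal4 (0.91), Alox12b and Usp54. Tgm3 is an epidermal transglutaminase, Pla2g4d an epidermal phospholipase A2, and Nipal4, like both lipoxygenases, is a gene whose loss in humans causes congenital ichthyosis. Alox5 had Alox5ap (0.88), the protein that presents arachidonic acid to it, then P2ry14 (0.87), the basophil protease Mcpt8 (0.83), Tspan32 and Tbc1d10c. Alox15 had Prkab1 (0.86), the tight junction genes Cldn3 (0.85) and Cldn7 (0.83), Trpm6 and Tmem176a. Ptges had Socs1 (0.78), Tgfa (0.75), Fnbp1, Rab1a and Stom, all 5 called. Hpgd had Serpinb3a (0.76), Rnase2b, Mfap3l, Nrtn and Elovl7 (0.71), all called, and its most negative gene was Diaph3 (−0.71), though no probeset was called by limma against Hpgd when ranks were used, where 1868 of 21579 were at an unadjusted p of 0.05. Alox12 had Kctd14 (0.72), Pigl, Gsta4, Cwh43 and Ptpru, and Ptgs2 had Lrrfip1 (0.65), Procr, Tinagl1, Myct1 and Sox17, none of which was called.

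Cell type markers went with the lipoxygenases in different ways. Alox5 was positively related to 7 of 7 macrophage markers (r from 0.51 to 0.81) and to 6 of 7 mast cell markers (0.40 to 0.78), and to 3 of 6 leukotriene genes, Alox5ap, Cysltr1 (0.67) and Ltc4s (0.60). Over all probesets 8.7% were related to Alox5. Aloxe3 was negatively related to 7 of 7 macrophage markers and Alox12b to 6 of 7, and they were positively related to 4 of 4 and 3 of 4 granular markers. Aloxe3 was also negatively related to 4 of 7 mast cell, 3 of 6 neutrophil, 2 of 4 endothelial and 2 of 5 fibroblast markers. For Alox12b these were 3 of 7, 2 of 6, 1 of 4 and 2 of 5. Of the 5 platelet markers each was negatively related to 2 and positively to 1. The shares over all probesets were 25% for Aloxe3 and 23.3% for Alox12b. Of all probesets related to Aloxe3, 2086 were positive and 3312 negative, a split that was 3098 and 2716 after subtraction of the array mean. Summed macrophage markers ran from 11.36 to 14.07 in susceptible mice, 11.51 to 13.21 in resistant mice and 11.15 to 14.14 in intermediate mice, and summed mast cell markers from 9.68 to 13.13, 9.14 to 11.26 and 8.98 to 11.79 in the same classes. None of the 4 eosinophil markers with a probeset reached the level for testing. Alox15 was related to 1 of 5 platelet markers (Ppbp, 0.63) and to 2 of 6 neutrophil markers (Ltf, 0.58, and Cxcr2, 0.50), against 4.34% of all probesets. Over all 5 platelet markers r with Alox15 had a median of 0.12 and a lowest value of −0.35. Over all 6 neutrophil markers it had a median of 0.29 and a lowest value of −0.20. The part of these cells in the lipoxygenase levels was not tested.

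The rest of the pathway was read from lists of genes. For the 10 phospholipase A2 genes tested, which release the substrate, the median susceptible minus resistant difference was 0.25, against 0.01 over all probesets tested. None was called by limma and 3 were higher at an unadjusted p of 0.05, which 2055 of all 21581 probesets reached in either direction. Pla2g2f, a secreted epidermal phospholipase, averaged 8.07 in susceptible mice and 6.74 in resistant mice, a difference of 1.32 ± 0.26 (adjusted p = 0.0546), and Pla2g4d, Pla2g4f and Pla2g4e followed at 0.86, 0.76 and 0.67. Levels of Aloxe3 and of Alox12b were each positively related to 5 of these 10 genes, against 25% and 23.3% of all probesets related in either direction.

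Among the 13 epidermal barrier lipid genes tested, which build and process ceramides and their fatty acids, the median difference was 0.48. None was called and 8 were higher at an unadjusted p of 0.05, led by Smpd1 (0.82), Sdr9c7 (0.74), Elovl4 (0.68) and Pnpla1 (0.64). That p was reached by 2055 of all 21581 probesets in either direction. Between agouti and white mice, which are uneven over the classes, 9 of these 13 were lower in agouti mice at an unadjusted p of 0.05 and none was called, with a median of −0.29 against 0.01 over all probesets. For coat, 1698 of all 21581 probesets reached that p in either direction. In resistant minus intermediate mice 11 of these 13 were lower at an unadjusted p of 0.05, which 3919 of all 21581 reached. Their median was −0.57, against −0.01 over all probesets. Abhd5, the lipase coactivator, was the 1 called, at −0.57 (adjusted p = 0.0252), against 168 of 21581. In susceptible minus intermediate mice 2 of the 13 were above 0, with a median of −0.13. None of them reached an unadjusted p of 0.05 there, as 3465 of 21581 did. Aloxe3 was positively related to 13 of these 13 genes and Alox12b to 12, while Hpgd was related to 1, Abhd5 (r = 0.62). The shares of all probesets related in either direction were 25% for Aloxe3, 23.3% for Alox12b and 0.885% for Hpgd.

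The 7 other prostanoid synthases tested had a median susceptible minus resistant difference of 0.22 with none called. In that contrast 11 of all 21581 probesets were called by limma (0.051%), and 2055 had an unadjusted p under 0.05 in either direction. Akr1c18, an aldo-keto reductase that acts on prostaglandins and progesterone, stood at 0.97 (adjusted p = 0.531), and Fam213b, a prostaglandin F synthase, stood at 0.69 (adjusted p = 0.347) and was the 1 gene with an unadjusted p under 0.05. Akr1c18 was the 1 gene of this list related to Hpgd (r = 0.60), as were 0.885% of all probesets. The 7 prostanoid receptors had a median of 0.12, with Ptger3 at 0.60, and none had an unadjusted p under 0.05. The 4 transport and breakdown genes had a median of −0.07, and Slco2a1, the transporter that takes prostaglandins into cells for breakdown by Hpgd, had −0.41 (adjusted p = 0.467, the 1 gene of the list with an unadjusted p under 0.05) and was related to Alox15 (r = 0.64). The 6 leukotriene genes had a median of 0.12, and the other lipoxygenases Alox8 and Alox12e stood at 0.46 and 0.13, with none called and none with an unadjusted p under 0.05. On the papilloma number slope no gene of these lists was called by limma, and 2 phospholipase A2 genes, 3 barrier lipid genes, 1 synthase and 1 receptor had an unadjusted p under 0.05, each with a positive slope. Over all probesets 2352 of 21581 reached that p in either direction.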

How the data were processed

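Expression was measured on Affymetrix mouse arrays in 68 papillomas of 37 mice. The deposited log2 values were made by the authors with RMA, per the submitters' processing notes, with the version not given in the sources used here; RMA scales arrays to each other, so a change shared by most probesets cannot be seen. No value was missing, and no column was left unmapped. The array annotation gave 34945 probesets 1 gene symbol, 932 several and 9160 none, and 64 were controls. Probesets with 1 symbol that lay above the median of their array in at least 11 of 68 arrays were tested (21581). Arrays give no read depth, and the number of mice limits the precision.

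Log2 values were averaged per mouse. Classes (more than 7, fewer than 2, or 2 to 7 papillomas at 20 weeks), coat with sex as covariate, sex with coat as covariate, the slope on log2(papillomas + 1) and the slope on the level of a member gene were fitted with limma 3.58.1 (R 4.3.3), moderated by eBayes, with Benjamini-Hochberg adjustment over all probesets tested at 0.05. The intraclass correlation was tested by a one-way F test per probeset. Single differences were tested by exact two-sided permutation over mice and correlations by 100000 permutations (scipy 1.17.1). The fits were tested on simulated data. Per gene, the probeset of highest mean was the main one, and all member probesets were described. The 5 genes most like each member by Pearson's r, and up to 4 genes per list with the largest susceptible minus resistant difference, were named. Of the list genes related to a member only some were named, so those given are a selection. Cell type markers were summed on the linear scale and given as log2.

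The members, lists and tests were chosen with earlier results of these data known. The alternatives tried changed the filter, the scaling, the papilloma used, the covariates, the classes and the mice. P-values measure the spread between mice of 1 backcross. Promoter sequences and motif counts came from RefSeq.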

Additional observations from a re-analysis of the deposited data

How the results depend on the processing

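Under the alternatives listed, 0 of the 12 member probesets were called between susceptible and resistant mice, except that 1 (Hpgd) was called with all 37 mice in 1 fit and without susceptible mouse 29, so that leaving out each mouse gave 0 to 1. For the slope on papilloma number the 1 call (Hpgd) held under 8 planned settings, and 0 were called with the mouse as a random block, the first papilloma only, the Actb ratio as covariate, papillomas at 24 weeks or the rank of papilloma number. It was also 0 with the second papilloma only and without mice 32 and 36, settings chosen after seeing the data, as were leaving out resistant mice 34 and 35 and leaving out each mouse from the slope (0 to 1 calls). Hpgd kept a positive slope in all of these, and the cause of each lost call was not tested. Relations called between members, 4 of 56 directed fits, fell to 2 with sex and start cohort removed and to 2 with the first papilloma only.

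Signs turned for values that were not called. Susceptible minus resistant, Ptges was −0.37 with the start cohort as covariate and −0.026 with classes at 24 weeks, and Alox12 was 0.017 with the mouse as a random block, 0.013 with coat, 0.13 with the start cohort, 0.10 with classes at 24 weeks and 0.0008 without resistant mice 34 and 35. Susceptible minus intermediate, Ptgs2 was 0.11 with the start cohort and 0.18 without mice of doubtful sex label, Alox12b 0.12 with the start cohort, Aloxe3 0.25 with the start cohort and 0.082 without mice of doubtful sex label, and Alox12 0.068 with the start cohort. Resistant minus intermediate, Alox12 was 0.25 with the first papilloma only, 0.007 with the start cohort and 0.026 with the Actb ratio, and Alox15, 0.71 over all mice, was −0.054 without mice of doubtful sex label. For the slope, Ptges was 0.040 with the Actb ratio, 0.014 without mice 32 and 36 and 0.024 with the second papilloma only, Alox12 was 0.012 with the random block, 0.028 with the start cohort and 0.19 with the second papilloma only, and Alox15 was 0.11 with the second papilloma only. Male minus female, Ptges was −0.0058 with the random block and −0.082 with the first papilloma only.

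Over all probesets the calls were 11 between susceptible and resistant mice (0 to 29 over the other settings, 4 to 89 leaving out 1 mouse, 89 without susceptible mouse 29), 2 between susceptible and intermediate mice (0 to 3), 168 between resistant and intermediate mice (9 to 960), 1 for the slope (0 to 110, and 0 to 58 leaving out 1 mouse, 58 without resistant mouse 35), 16 for coat (13 to 24) and 14 for sex (7 to 48). No paired analysis was possible because the replicate number in the labels marks the first or second papilloma of a mouse and does not pair mice across classes, and comparisons were over mouse means.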
